A study of Mus musculus with 6 samples.

Results

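Hepatic transcripts of 9 genes that connect growth factor receptors, the Yap1 coactivator, caveolae and the extracellular matrix were compared between antibiotic-treated (ABX) mice under a normal light–dark cycle and a short day. The genes were Met, Tgfbr1, Yap1, Cav1, Cav2, Col1a2, Col15a1, Reck and Tln1. They were chosen by symbol from the 55357 rows of the count table, with earlier results of these data known. Each symbol matched 1 row. The mice were C57BL/6 by the labels and C57BL/6N by the study's methods, and all carried the same antibiotic treatment, a cocktail in sterilized drinking water that depletes the gut microbiota, so no liver with an untreated microbiota was compared here. Liver RNA came from 3 NLD mice, with 12 h of light and 12 h of darkness, and from 3 SD mice, with 8 h of light and 16 h of darkness, and was sequenced, with 1 library per mouse. The labels give day 28 for all 6 samples, whereas the study's text describes 28 days of acclimatization followed by a formal trial. By that text each mouse had its own cage, and sampling followed a fast and took place in the late morning for both groups.

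Met is the receptor tyrosine kinase for hepatocyte growth factor, and Tgfbr1 is the type I receptor through which TGF-beta activates Smad proteins, which restrain hepatocyte growth and drive matrix production in fibrosis. Yap1 is the transcriptional coactivator that the Hippo kinases hold out of the nucleus, and it binds TEAD factors to control liver size. Caveolins form the coat of caveolae, small pits of the plasma membrane that hold signaling receptors, while collagens build the matrix, Reck restrains the proteases that degrade it, and talin couples integrins to actin.

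A gene name needs care in this table, since GRCm39 is the genome of the study's methods, whereas GRCm38 and mm10 appear in the submitters' processing notes. Of 21109 protein-coding rows matched in both annotations, 535 (2.53%) lay at one and the same position in the 2 builds (called placed alike from here on), and 83.8% of the pairs did not overlap at all. The 9 genes were all among the 535, so that their counts cover nearly the same interval whichever build was used. Hepatocyte markers had both high and low levels among rows at other positions. Alb, the main plasma protein of hepatocytes, lay at another position in the 2 builds and had a mean of 1.25 CPM, although its transcript is among the most abundant of the liver. Cps1, the first enzyme of the urea cycle, also lay at another position and had a mean of 2073 CPM. Pon1, the paraoxonase that hepatocytes secrete, was placed alike and had between 1.30e+04 and 1.85e+04 CPM in each library. The part of the build in these levels was not tested.

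The 9 genes lay on 3 chromosomes in GRCm39. Cav2 (6:17281026-17289877), Cav1 (6:17306140-17341451) and Met (6:17463749-17573979) follow each other on the plus strand, with 16263 bp between the caveolin genes and 122298 bp between Cav1 and Met. Col1a2 (6:4504814-4541555) lay on the plus strand of the same chromosome. Col15a1 (4:47207582-47313179) and Tgfbr1 (4:47353134-47414931) lay 39955 bp apart on the plus strand. Tln1 (4:43531513-43562691, minus strand) and Reck (4:43875514-43944806, plus strand) lay 312823 bp apart, and Yap1 (9:7932000-8004661) lay on the minus strand of chromosome 9. Counting by strand is not given in the sources used here, and exons of Tln1 share up to 421 bp with Creb3 on the opposite strand. Creb3, a transcription factor of the endoplasmic reticulum, had between 2109 and 3129 counts per library, and the share of them that came from Tln1 transcripts was not tested.

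The promoters show how the rows were placed and are printed for the 3 genes whose groups did not overlap in the values that follow. The sequences are the first 250 bases of RefSeq promoter windows on GRCm38.p6, read 5′ to 3′ on the plus strand. They stand at chr4:43875280-43875529 for Reck, chr6:17463707-17463956 for Met and chr6:17306085-17306334 for the first of 2 windows of Cav1. The RefSeq genes start at 43875521 (Reck), 17463349 (Met) and 17306335 (Cav1) in GRCm38. The Met window thus lies inside the gene, the Reck window reaches just past its gene start, and the Cav1 window ends before it. Capitals mark the GC box, searched as GGGCGG on both strands (CCGCCC on the other).
Reck: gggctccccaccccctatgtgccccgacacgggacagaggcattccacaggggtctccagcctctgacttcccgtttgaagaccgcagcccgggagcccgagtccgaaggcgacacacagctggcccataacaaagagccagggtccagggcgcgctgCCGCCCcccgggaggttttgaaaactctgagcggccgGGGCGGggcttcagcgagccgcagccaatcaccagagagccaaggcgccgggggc
Met: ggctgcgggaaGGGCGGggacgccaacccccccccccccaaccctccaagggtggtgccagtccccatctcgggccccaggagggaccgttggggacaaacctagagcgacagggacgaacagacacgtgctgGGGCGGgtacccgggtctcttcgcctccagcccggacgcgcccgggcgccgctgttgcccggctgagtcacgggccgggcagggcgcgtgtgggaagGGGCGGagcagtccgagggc
Cav1: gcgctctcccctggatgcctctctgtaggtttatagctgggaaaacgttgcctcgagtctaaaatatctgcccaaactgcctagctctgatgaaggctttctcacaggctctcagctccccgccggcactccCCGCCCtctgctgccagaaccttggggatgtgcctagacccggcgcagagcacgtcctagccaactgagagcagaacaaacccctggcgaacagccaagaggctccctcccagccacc
In the GRCm39 sequence the Reck window was found at the same coordinate, and the Met and Cav1 windows 1 base earlier. The windows of all 9 genes were found in GRCm39 at an offset of at most 1 bp.

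The Reck window held 2 GC boxes, the Met window 3 and the printed Cav1 window 1. Over the 11 windows of the 9 genes, 7 held at least 1 GC box, beside 32.7% of all 32851 RefSeq windows of that length. The core of the TEAD motif, GGAATG on either strand, was present in the windows of Reck and Yap1, against 12.6% of all windows. The AP-1 motif TGANTCA was present in the windows of Met and Cav2, against 6.75% of all windows. The windows of the 9 genes held from 52.8% (the second window of Tgfbr1) to 76.4% (Yap1) G and C, with 68.4% for Reck, 74% for Met and 59.6% for the printed window of Cav1, against a median of 52.4% over all windows. A match describes the letters of a window and nothing further.

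Total counts per library ranged from 5497797 to 6457190 under NLD and from 5548753 to 6932965 under SD. The 10 most abundant rows took 20.95% to 26.11% of a library. The leading principal component of log2 CPM held 30.3% of the variance, with scores of 75 for NLD replicate 2, 27.7 for NLD replicate 3 and between -44.7 and -13.3 for the remaining libraries. A count of 4 was more frequent than a count of 1, 2, 3 or 5 in each library, and low counts need not stand for single reads. All 9 genes had at least 176 counts in each library and passed the filter on low counts. Levels are given in CPM, which relate a count to the TMM-scaled size of its library.

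Levels between genes were compared per kilobase of exon in GRCm39, as CPM per kb averaged over the 6 libraries. Met was the most abundant at 161, followed by Tln1 at 94.9, Yap1 at 83.3 and Tgfbr1 at 57.9. Met lay above Tln1 in 6 of 6 libraries, and Tln1 above Yap1 in 5 of 6. Yap1 lay above Tgfbr1, and Tgfbr1 above Col1a2, in all 6. The matrix and caveolar genes formed a lower group, with Col1a2 at 15, Col15a1 at 14.6, Cav2 at 14.1, Reck at 10.4 and Cav1 at 8.84. Neighbors within this lower group changed places between libraries, since Col1a2 exceeded Col15a1 in 3 of 6 libraries and Reck exceeded Cav1 in 4 of 6, and their order was not separable from the spread. In whole liver, more cells of a type and more RNA per cell cannot be told apart.

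**Figure D1:**
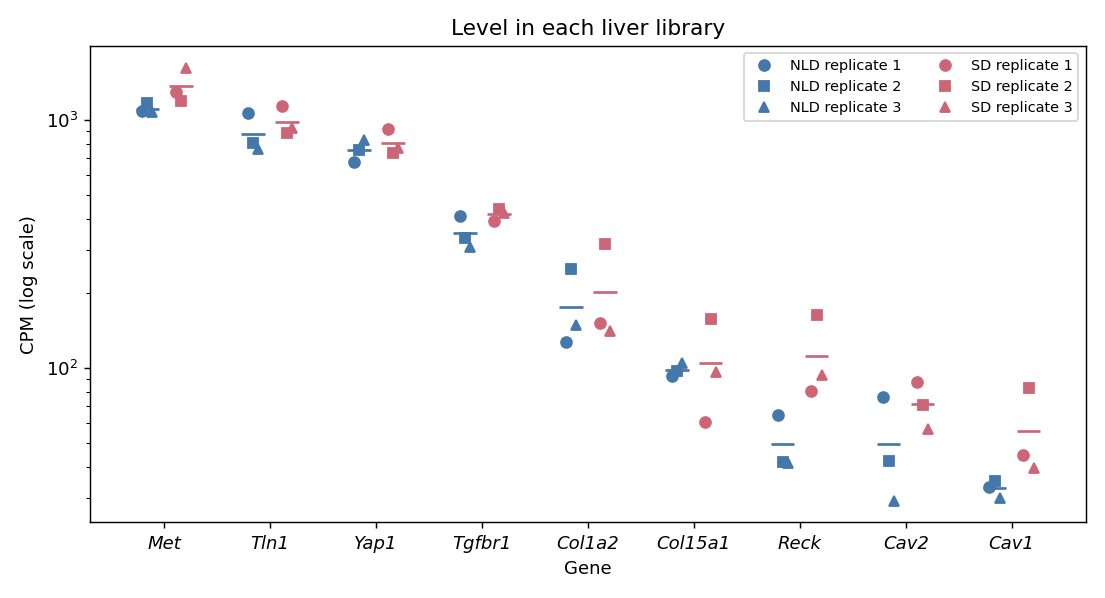
Level of the 9 genes in each liver library, in CPM on a log axis, with 3 NLD libraries in blue, 3 SD libraries in red and a bar at each group mean. The groups of Met, Cav1 and Reck do not overlap, and SD replicate 2 stands high for Col1a2, Col15a1, Reck and Cav1.

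Compared with NLD, none of the 9 genes reached an adjusted p under 0.05 under SD in edgeR (quasi-likelihood F test, p-values adjusted by Benjamini-Hochberg over 7261 rows). Across these rows 0.289% passed that threshold. Reck and Cav1 had an unadjusted p under 0.05 and were higher under SD, against 4.46% of all rows that were higher and 4.02% that were lower at that threshold. At an adjusted p under 0.05, DESeq2, the tool the study used, called 1 of the 9 genes, Reck. Of all rows 1.89% passed in either direction and 0.964% in the higher direction. The study itself selected genes by a p under 0.05 and a limit on the fold change, and names no adjustment. The log2 fold change was above 0 for all 9 genes and for 53% of all rows. Its median over the 9 genes was 0.249, against 0.035 over all rows tested and 0.034 over the 347 tested rows placed alike. All SD libraries exceeded all NLD libraries for 3 of the 9 genes, Met, Cav1 and Reck, against 9.08% of all rows, and the reverse held for none of the 9 genes and 7.93% of all rows. Among the rows placed alike, the shares were 13.5% and 8.65% without overlap in the higher and the lower direction. Of the same rows 7.78% were higher and 5.76% lower at an unadjusted p under 0.05 in edgeR, 0.288% passed after adjustment in edgeR, all of it in the higher direction, and 4.32% passed in DESeq2, with 4.03% higher. With upper quartile factors the libraries of Met overlapped and 2 genes remained. Since the 9 genes were chosen with earlier results of these data known, these shares describe the list and test nothing.

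Reck, a membrane-anchored inhibitor of matrix metalloproteinases, showed the largest difference of the 9 genes. Its levels were 64.62, 41.64 and 41.29 CPM under NLD and 80.42, 163 and 93.29 CPM under SD. The groups did not overlap, and SD replicate 2 stood far above the other 5. The means were 49.18 ± 13.37 CPM under NLD and 112.2 ± 44.42 CPM under SD (mean ± standard deviation over libraries, n = 3 each). The log2 fold change was 1.19 with a standard error of 0.33 and a 95% interval of 0.41 to 1.97. The unadjusted p was 0.00913 and the adjusted p 0.426 in edgeR, and the adjusted p was 0.0439 in DESeq2.

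The DESeq2 call of Reck was lost without any 1 of 4 libraries. Without SD replicate 2 the log2 fold change in DESeq2 fell to 0.81, with an adjusted p of 0.117. The fold change stayed near the 1.18 of all 6 libraries in the other 3 cases, at 1.30 without SD replicate 3 (adjusted p = 0.142), 1.08 without NLD replicate 2 (adjusted p = 0.239) and 1.07 without NLD replicate 3 (adjusted p = 0.307). The call was kept without NLD replicate 1 (1.42, adjusted p = 0.00476) and without SD replicate 1 (1.37, adjusted p = 0.0224). These fits were added after seeing the data.

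Met, the receptor of hepatocyte growth factor, had 1086, 1171 and 1081 CPM under NLD and 1296, 1199 and 1628 CPM under SD. The groups did not overlap, but the highest NLD library and the lowest SD library, both replicate 2, lay close together, and SD replicate 3 alone stood apart. The means were 1112 ± 50.55 CPM and 1374 ± 225.2 CPM (n = 3 each). SD against NLD gave a log2 fold change of 0.31 with a standard error of 0.15 and an interval of -0.05 to 0.66. The adjusted p was 0.622 in edgeR. Without SD replicate 3 the log2 fold change was 0.16.

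Tgfbr1, the signaling receptor of TGF-beta, had 409.4, 335.1 and 307.1 CPM under NLD and 391.3, 437.3 and 421.1 CPM under SD. NLD replicate 1 lay within the range of the SD group, and the other NLD libraries lay below it. Its log2 fold change was 0.25 with a standard error of 0.15 and an interval of -0.10 to 0.60. The adjusted p was 0.658 in edgeR. Without NLD replicate 1 the log2 fold change was 0.38. The ratio of Met to Tgfbr1 counts was 2.65, 3.49 and 3.52 under NLD and 3.31, 2.74 and 3.87 under SD. Groups overlapped in this ratio.

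Yap1, the coactivator of the Hippo pathway, was the least variable of the 9 genes over the 6 libraries. It had 677.2, 757.9 and 829.5 CPM under NLD and 916.5, 733.8 and 771.7 CPM under SD, and the groups overlapped. The highest level was 1.35 times the lowest. The log2 fold change was 0.10 with a standard error of 0.14 and an interval of -0.25 to 0.44. The adjusted p was 0.87 in edgeR. Tln1, which activates integrins at focal adhesions, had 1063, 810.4 and 766.9 CPM under NLD and 1137, 883.2 and 926.8 CPM under SD. Replicate 1 was the highest library in both groups, and the groups overlapped. Its log2 fold change was 0.16 with a standard error of 0.18 and an adjusted p of 0.828 in edgeR.

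Cav1, the principal coat protein of caveolae, had 33, 34.95 and 30.01 CPM under NLD and 44.7, 82.81 and 39.39 CPM under SD. The groups did not overlap, and SD replicate 2 stood far above the other SD libraries. The means were 32.66 ± 2.487 CPM and 55.63 ± 23.68 CPM (n = 3 each). SD against NLD gave a log2 fold change of 0.77 with a standard error of 0.31 and an interval of 0.04 to 1.5. The unadjusted p was 0.0419 and the adjusted p 0.578 in edgeR. Without SD replicate 2 the log2 fold change was 0.35, with an unadjusted p of 0.12 in edgeR.

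Cav2, the partner that assembles with Cav1, had 76.48, 42.31 and 29.19 CPM under NLD and 88.21, 70.62 and 56.5 CPM under SD. NLD replicate 1 lay inside the SD range, and the other NLD libraries lay below all SD libraries. Its log2 fold change was 0.54 with a standard error of 0.37 and an interval of -0.35 to 1.43. The adjusted p was 0.704 in edgeR. Without NLD replicate 1 the log2 fold change was 1.0, with an unadjusted p of 0.0131 and an adjusted p of 0.24 in edgeR. The ratio of Cav1 to Cav2 counts ran from 0.431 to 1.03 under NLD and from 0.507 to 1.17 under SD, so the neighboring caveolin genes did not keep a fixed ratio within either group.

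Col1a2, a chain of the fibrillar type I collagen, had 127.7, 249.7 and 149.6 CPM under NLD and 151.5, 316.9 and 140.6 CPM under SD. Replicate 2 was the highest library in both groups, and the groups overlapped. SD against NLD gave a log2 fold change of 0.21 with a standard error of 0.40 and an interval of -0.77 to 1.19. The adjusted p was 0.897 in edgeR. Without SD replicate 2 the sign turned, with a log2 fold change of -0.28. An opposite-strand noncoding gene, Gm66266, has an exon that shares up to 1167 bp with an exon of Col1a2, and no row of the count table bears its name.

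Col15a1, a collagen of the basement membrane zone, had 92.47, 96.83 and 105.1 CPM under NLD and 60.45, 158.1 and 96.5 CPM under SD. The SD group held both the lowest and the highest library, and the NLD libraries lay between them. Its log2 fold change was 0.10 with a standard error of 0.33 and an interval of -0.70 to 0.90. The adjusted p was 0.944 in edgeR. Without SD replicate 2 the log2 fold change was -0.33.

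**Figure D2:**
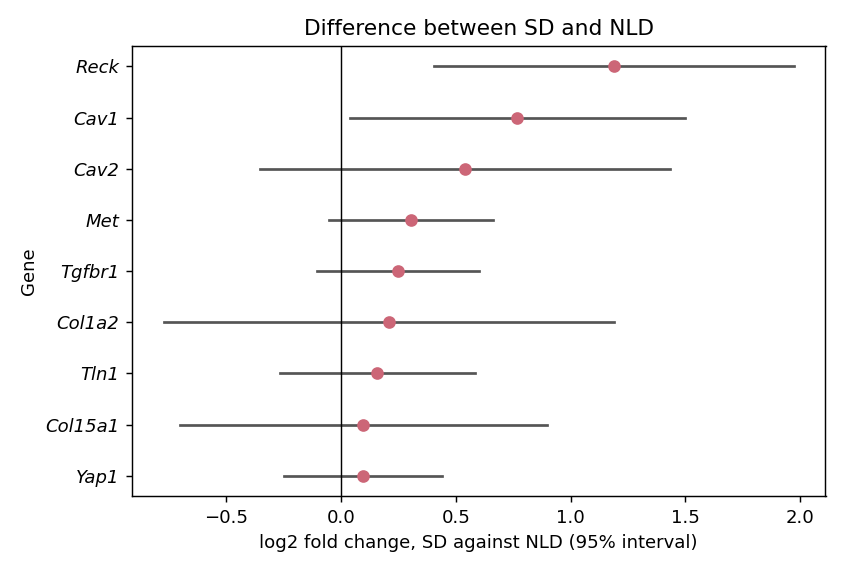
Log2 fold change of the 9 genes, SD against NLD, with the 95% interval from the edgeR fit on 3 libraries per group. Only the intervals of Reck (0.41 to 1.97) and Cav1 (0.04 to 1.5) lie above 0, before adjustment over the 7261 rows.

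SD replicate 2 recurred across these genes. It was the highest of the 6 libraries for Tgfbr1, Cav1, Col1a2, Col15a1 and Reck, 5 of 9 genes, and the highest for 12.8% of all rows tested and 19.3% of rows placed alike. NLD replicate 3 was the lowest library for 6 of 9 genes, against 15% of all rows and 20.7% of rows placed alike. Relative to its own mean over the 6 libraries, SD replicate 2 stood at 1.18 for Reck, 0.99 for Cav1, 0.83 for Col1a2 and 0.69 for Col15a1 on the log2 scale. The same library stood at -0.04 for Met, -0.08 for Yap1 and -0.06 for Tln1. Its total of 6932965 counts was the highest of the 6 and its 10 most abundant rows took the largest share. The part of depth and composition in these values was not tested.

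**Figure D3:**
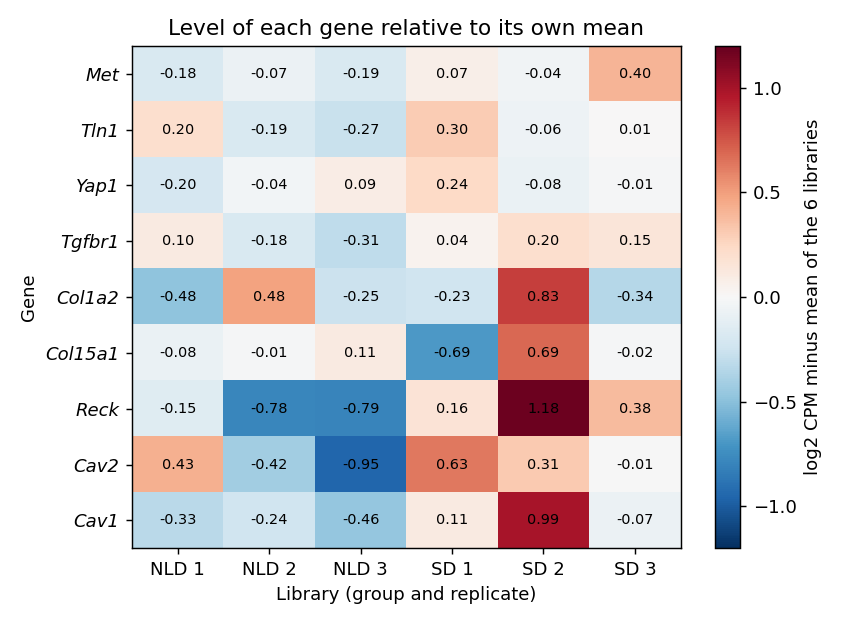
Log2 CPM of each gene in each library minus the mean of that gene over the 6 libraries, as a color and a number. The column of SD replicate 2 holds the highest values for Reck (1.18), Cav1 (0.99), Col1a2 (0.83) and Col15a1 (0.69), while Met, Yap1 and Tln1 lie close to 0 there.

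**Figure D4:**
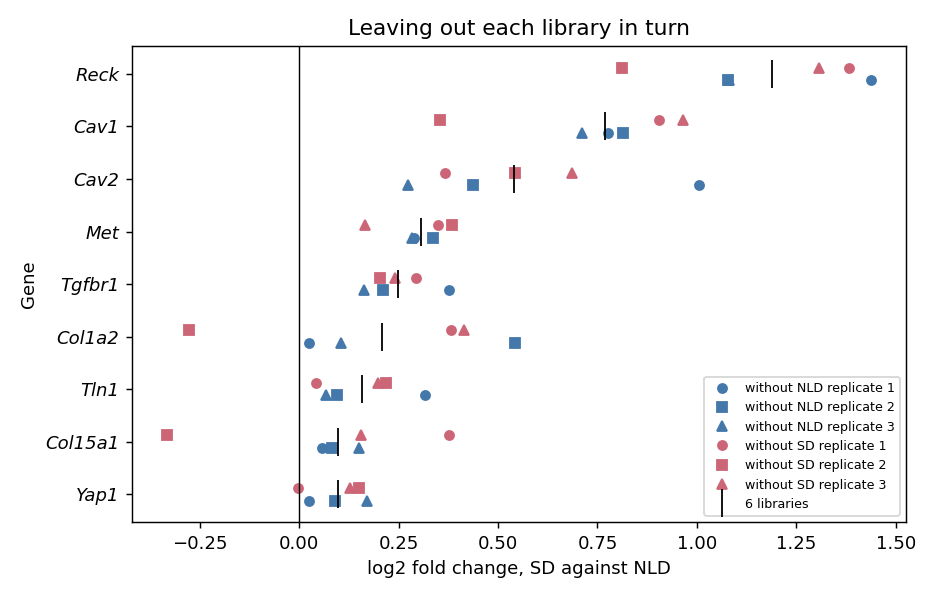
Log2 fold change of each gene, SD against NLD, after leaving out each of the 6 libraries in turn, with a black line at the value from all 6. Reck stays between 0.81 and 1.44, whereas Col1a2 and Col15a1 fall to -0.28 and -0.33 without SD replicate 2.

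The matrix genes are made in the liver mainly by stellate cells, fibroblasts and endothelial cells. Of 14 stellate cell and fibroblast markers, 8 were at 0 in all libraries, among them Des, Lrat, Dcn, Acta2 and Col1a1, and none was placed alike. Their summed level was 22.7 to 32.8 CPM under NLD and 27.6 to 36.4 CPM under SD, with the highest sum in SD replicate 2. That library also had the highest sum of the hepatocyte markers and of the cholangiocyte markers, the latter at 1460 to 1600 CPM under NLD and 1240 to 2130 CPM under SD. Of 14 endothelial markers, 5 were at 0, among them Kdr, Clec4g and Lyve1, and the sum ran from 1728 to 2321 CPM under NLD and from 2065 to 2308 CPM under SD. Kupffer cell markers were at 0 for 10 of 12 genes. Of 16 hepatocyte markers, 5 were at 0 and 5 were placed alike. Most marker rows lay at other positions in the 2 builds, and the part of cell composition in the levels of the 9 genes was not tested.

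The pathways around the 9 genes were described by lists written from textbook knowledge, and no list was tested as a set. Genes of the lists are named as in the table, and most of their rows lay at other positions in the 2 builds. None of their genes had an adjusted p under 0.05 in edgeR, and DESeq2 called Hras and Reck alone among them. Of all tested rows 0.289% passed in edgeR and 1.89% in DESeq2. The threshold for the counts that follow is an unadjusted p under 0.05 in edgeR. Over all tested rows 4.46% were higher and 4.02% lower at this threshold, and the median log2 fold change was 0.035. Counts as small as those below are not read as results about a list. Of 15 tested genes of the HGF and Met list, 1 was higher and 2 were lower, with a median log2 fold change of 0.145. Sos1, an exchange factor for Ras, was the higher one (0.86) and Hras itself among the lower (-0.61). The means of Sos1 were low, 6.18 CPM under NLD and 11.22 CPM under SD, against a median of 13.6 CPM over all tested rows. Met was the only tested gene of that list placed alike. The adjusted p of Hras was 0.309 in edgeR and 0.00148 in DESeq2.

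Of 13 tested TGF-beta genes, 1 was higher, Ltbp3, which binds latent TGF-beta (0.75), and none was lower, with a median of 0.06. Besides Tgfbr1, the decoy receptor Bambi was placed alike and had a log2 fold change of 0.06. Of 21 tested Hippo and Yap1 genes, 1 was higher, the kinase Lats1 (0.99), and none was lower, with a median of -0.01. The means of Lats1 were low, 3.36 CPM under NLD and 6.69 CPM under SD. Birc2 and Birc3, inhibitors of apoptosis encoded beside Yap1, were placed alike. Their log2 fold changes were -0.01 and -0.08, against 0.10 for Yap1.

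Of 23 tested collagen and basement membrane genes, none was higher and 2 were lower, with a median of 0.06. These were Col27a1, a fibrillar collagen (-0.60), and P4hb, a subunit of prolyl 4-hydroxylase (-0.40), and both lay at other positions in the 2 builds. Of 20 tested talin and integrin genes, 2 were higher and 1 was lower, with a median of 0.03. Tns1, which links integrins to actin (1.41), and Kank1, which binds talin (0.65), were higher, and the adaptor Tgfb1i1 was lower (-0.90), all as named in the table, since these 3 rows lay at other positions. Of 3 tested caveolar genes, Cav1 alone passed that threshold.

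Among 15 tested genes of matrix proteases and their inhibitors, Reck alone was higher and none was lower, with a median of -0.20. The matrix metalloproteinases placed alike had few or no counts. Of the 12 genes of this list placed alike, Mmp1a, Mmp1b and Mmp10 were at 0 in all 6 libraries. Mmp12, the macrophage elastase, had 11, 25 and 18 counts under NLD and 16, 31 and 4 under SD. Mmp7, matrilysin, had 0, 92 and 6 counts under NLD and 17, 254 and 0 under SD, so that replicate 2 held nearly all counts in each group. Its log2 fold change was 1.29 with a standard error of 2.19. Mmp9, at another position in the 2 builds, had a log2 fold change of -0.41 with an adjusted p of 0.598 in edgeR.

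Genes that flank the 9 genes were read from the same fit. Within 500000 bp, 64 protein-coding rows placed alike were found, of which 46 were tested. After adjustment 1 of them was higher in edgeR, and before adjustment 4 passed 0.05 in the higher and 2 in the lower direction. Of all tested rows placed alike 0.288% passed after adjustment, and 7.78% were higher and 5.76% lower before it, so that 4 and 2 of 46 were near the background. DESeq2 called 3 of the 46, all higher, against 4.32% of tested rows placed alike in either direction and 4.03% in the higher direction. All SD libraries lay above all NLD libraries for 4 of the 46 and below them for 4. The shares over all tested rows placed alike were 13.5% and 8.65%. Over the 46 the fit gave a median log2 fold change of -0.04. The gene called by edgeR was Rusc2, with RUN and SH3 domains, which lay 104425 bp from Tln1 and 448426 bp from Reck. It had 138.9, 145 and 114.1 CPM under NLD and 351.3, 292.9 and 350.3 CPM under SD. Its groups did not overlap and gave a log2 fold change of 1.32 (adjusted p = 0.0345 in edgeR and 5.06e-12 in DESeq2). The edgeR call of Rusc2 was lost without any single library and with the replicate number as a block. Unc13b, a priming factor of vesicle fusion on the other side of Tln1 from Reck, had a log2 fold change of 0.92 (adjusted p = 0.273 in edgeR and 0.00502 in DESeq2). Between Tln1 and Reck, Hint2, a mitochondrial hydrolase, had -0.46, and Clta, a clathrin light chain beyond Reck, had -0.30. Tln1 itself had 0.16. For Hint2 and Clta all SD libraries lay below all NLD libraries.

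The ratio of Reck to Tln1 counts, which needs no scaling between libraries, was 0.0608, 0.0514 and 0.0538 under NLD and 0.0707, 0.185 and 0.101 under SD. All SD libraries lay above all NLD libraries in this ratio, as they did for Reck itself. The ratio thus repeats the values of Reck and is not a separate result. Near the caveolin genes and Met, Capza2, a subunit of actin capping protein 62254 bp from Met, had a log2 fold change of -0.06 and St7 had -0.19. Casd1, a sialic acid acetyltransferase 59104 bp from Col1a2, had 313.8, 298.7 and 286 CPM under NLD and 395.2, 386.5 and 441.7 CPM under SD. Its groups did not overlap, with a log2 fold change of 0.45 and an adjusted p of 0.417 in edgeR and 0.0216 in DESeq2. Near Col15a1 and Tgfbr1, Anks6 had 0.88 and Alg2 had -0.53.

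**Figure D5:**
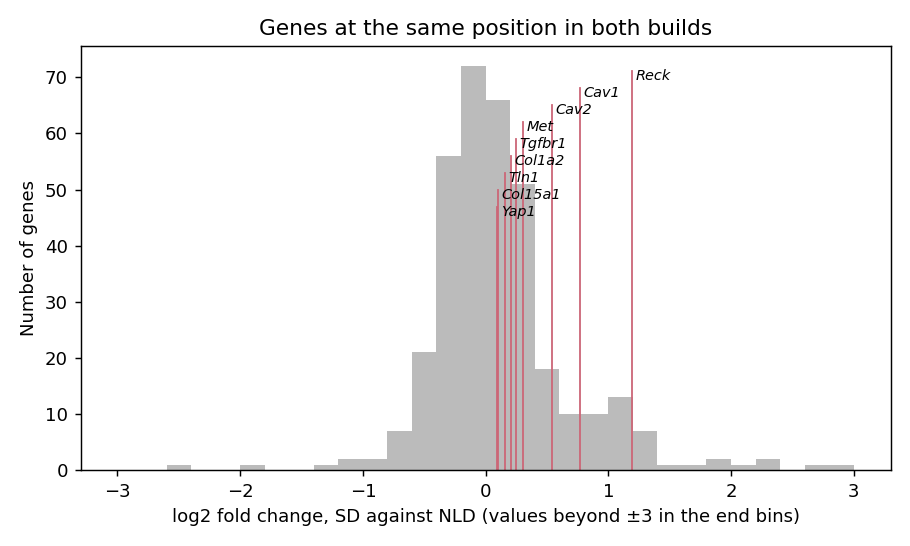
Histogram of the log2 fold change, SD against NLD, of the 347 tested genes placed alike, with a red line for each of the 9 genes. The median of the 347 genes is 0.034, and the 9 genes run from 0.10 (Yap1 and Col15a1) to 1.19 (Reck).

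The genes nearest to each of the 9 in pattern were found among 346 other rows placed alike, by the root mean square difference of log2 CPM over the 6 libraries after centering each row. Nearest to Met was Ptbp3, a splicing regulator, at 0.086, against a median of 0.347 over the 346 rows, and then Mib1, a ubiquitin ligase, at 0.09. Nearest to Tgfbr1 was the kinesin Kif5b (0.059), and nearest to Yap1 were Wac (0.096) and Pip4p2 (0.097). Tln1 was nearest to Casp8ap2 (0.07) and to the kinase Lyn (0.087). Cav1 was nearest to Svil (0.179) and Anks6 (0.187), and Reck to Anks6 (0.284) and Unc13b (0.311). The spread of the genes themselves differed, with a root mean square deviation from their own mean of 0.184 for Tgfbr1, 0.543 for Cav2 and 0.686 for Reck. Cav2 was nearest to Pakap (0.19) and Jcad (0.238), Col1a2 to Ankrd6 (0.191) and Casp12 (0.221), and Col15a1 to Osgin2 (0.186) and Cep41 (0.192). The distances are descriptions of 6 libraries.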

How the data were processed

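Liver RNA of 3 NLD and 3 SD mice was sequenced, with 1 library per mouse. The methods name fastp, HISAT2, StringTie and GRCm39. The values deposited by the authors are raw whole-number counts for each gene. Neither the strand setting nor the conversion from StringTie to counts is stated in the methods or labels, so overlapping genes cannot be told apart. The fit used edgeR 4.0.16 under R 4.3.3 (factors by TMM, low rows removed by filterByExpr, robust quasi-likelihood fit, two-sided F test, Benjamini-Hochberg adjustment), which kept 7261 of the 16129 rows with a count. A standard error is the size of the log2 fold change divided by the root of F. DESeq2 1.42.0 was an alternative, beside other scalings and filters, the replicate number as a block, counts divided by 4, rows that share a symbol summed, rows placed alike only and each library left out in turn. With 3 mice per group, p-values weigh a difference against the spread between these mice, which the fit estimates partly from all rows together. An exact permutation test of 1 gene could not reach 0.05.

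A row was called placed alike when its nearer end differed by at most 2000 bp between GRCm39 and GRCm38.p6 and the median difference of 11 neighboring coding rows was at most 10 bp. No coordinate was converted. The members and the lists were chosen with earlier results of these data known. Named were the 9 genes, of each list the tested genes placed alike and up to 3 with the smallest p, up to 3 neighbors of each gene within 500000 bp with the smallest p, the 2 genes nearest in pattern, and abundant or defining cell markers. Creb3, Gm66266, Capza2, Alb, the proteases at 0 and the markers at 0 were named beyond this rule, after their values were seen. Within each group, replicate libraries were further apart than counting error allows (34.8 to 71.4 chi-square units per row). None was thus a copy of another in its group, which does not show that they came from different mice. The fit was tested on simulated data. Values of some genes are left unreported.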

Additional observations from a re-analysis of the deposited data

How the results depend on the processing

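Of 153 values of the 9 genes under 17 other settings, 147 kept their direction and their side of the threshold. Reck passed it in DESeq2 (log2 fold change 1.18) and in DESeq2 with no filter (1.18), so that 1 of the 9 genes was called in each, against 0 in edgeR. In the added DESeq2 fits that left out 1 library each, Reck ranged from 0.81 to 1.42, and it passed the threshold without NLD replicate 1 (1.42) and without SD replicate 1 (1.37). The sign turned for Yap1 without SD replicate 1 (-0.00197), for Col1a2 without SD replicate 2 (-0.28), and for Col15a1 without SD replicate 2 (-0.33) and with the replicate block (-0.010). The cause was not tested. Leaving out single libraries gave 1 to 3 of the 9 genes at an unadjusted p under 0.05 (2 with all libraries), while the same threshold was passed by 1138 of 7717 rows without NLD replicate 1, where the 3 occurred, by 616 of 7261 with all libraries and by 397 of 7700 without SD replicate 3. Without single libraries the log2 fold changes were 0.81 to 1.44 for Reck, 0.35 to 0.96 for Cav1, 0.27 to 1.0 for Cav2, 0.16 to 0.38 for Met, 0.16 to 0.38 for Tgfbr1, -0.00197 to 0.17 for Yap1, -0.28 to 0.54 for Col1a2, -0.33 to 0.38 for Col15a1 and 0.04 to 0.32 for Tln1. The count of all rows at an adjusted p under 0.05 was 21 in edgeR, 44 with no filter, 137 in DESeq2, 91 in DESeq2 with no filter, 1 with rows placed alike only, where fewer rows were fitted, and 0 to 30 without single libraries. Among rows placed alike it was 1, then 3 with no filter, 15 in DESeq2, 10 in DESeq2 with no filter and 0 without any single library. With the replicate number as a block, 0 rows passed in edgeR (766 at an unadjusted p under 0.05), 0 of them placed alike, and Reck had 1.15 with an adjusted p of 0.445. Libraries with the same number correlated at 0.0762, 0.0686 and 0.036 in their deviations from the group means, none over 0.1, although each library correlated best with its own number, which is a hint from the data and not from the design. The numbers were not taken to pair the mice.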
